A study of Mus musculus with 2 samples.

Results

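Conventional T cells of a mouse colon tumour were the cells described here, taken as T cells in which no read of a CD8 chain, of Foxp3 or of the gamma delta receptor gene Trdc was found. They numbered 398 of 7732 kept CD45+ cells (leukocytes) and of 1557 T cells, in 14 mice. Members were chosen by the reads of these genes in each cell, so the levels of the genes the rule names are not results. Trac, the constant part of the T cell receptor alpha chain, stood at 2 or more reads per 10000 reads of the cell (CP10k). Cd8a, Cd8b1, Foxp3 and Trdc had no read, and at least 1 read of Cd4, Tcf7 or Il7r was present. Lyz2 lay under 5 CP10k, C1qa under 1 and Ncr1 under 1, which set aside cells above these levels of macrophage and NK cell genes. Reads below the limits remained, with Lyz2 read in 116 members, C1qa in 17 and Ncr1 in 6. Regulatory T cells (342, at least 1 read of Foxp3) and CD8 T cells (484, at least 1 read of Cd8a or Cd8b1) met the same limits on Trac, Lyz2, C1qa and Ncr1 and are the nearest cells to compare. Regulatory T cells also had no read of Cd8a, Cd8b1 or Trdc, and CD8 T cells none of Foxp3 or Trdc, so that 333 T cells fell in none of the 3 classes.

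All mice were wild type BALB/c animals with Colon26 tumours, a colon carcinoma line, grown under the skin and taken on day 10. The minP1 group (n = 4) received 0.08 µg of minP1, an immunostimulatory peptide of the nucleosome protein HMGN1, on day 9. The PDL1 group (n = 3) received 200 µg of an antibody against PD-L1, the ligand of the inhibitory receptor PD-1, on days 4 and 8. The minP1_PDL1 group (n = 4) received both, and the Control group (n = 3) was untreated, with no injection of a carrier or of another antibody named. The labels also call the cells intestinal although the tumours were subcutaneous, and they give no age.

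Conventional CD4 T cells recognise peptides on MHC class II and direct other immune cells through cytokines and surface ligands such as CD40 ligand. Naive cells leave lymph nodes by way of S1pr1 and keep the factors Tcf7, Lef1 and Klf2. Activated helper cells take on Th1, Th2, Th17 or follicular programmes. Regulatory T cells are the suppressive CD4 lineage and hold the high-affinity interleukin 2 receptor (Il2ra) and Ctla4 at high level. CD8 T cells kill through perforin and granzymes, and in tumours many divide or gain inhibitory receptors.

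The limits of the rule lay inside a continuous range. Trac in members ran from 2.00 to 99.96 CP10k with a median of 15.2. The nearest cell outside stood at 1.96 CP10k, with 24 cells between 1 and 2 CP10k and 26 members between 2 and 3 CP10k. Of 515 T cells with none of the 4 barred genes, 117 had no read of Cd4, Tcf7 or Il7r and were left out. Lyz2 alone left out 86 cells, C1qa alone 10 and Ncr1 alone 23. Cd4 was read in 188 members (47.2%, Wilson 95% interval 42.4 to 52.1%), Tcf7 in 171 (43.0%, 38.2 to 47.9%) and Il7r in 264 (66.3%, 61.6 to 70.8%). Only 43 members had reads of all 3 genes, 76 had Cd4 without the other two, 42 had Tcf7 alone and 98 had Il7r alone. In the 210 members without a read of Cd4 the label of conventional T cells rests on Tcf7 or Il7r and on the absence of reads of other genes. Intervals cover counting error only, since they treat the members of all mice as independent cells and leave out the spread between mice. Reads were not collapsed into molecules.

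Members were the shallowest of the 3 classes. The median member held 18149.5 reads over 1229 genes, the median regulatory T cell 22383.5 reads over 1532 genes and the median CD8 T cell 34110.5 reads over 1906 genes. When all T cells were put in 3 equal groups of 519 by read number, members made up 37.8% of the group of fewest reads, 27.6% of the middle and 11.4% of the group of most reads. A CD8 or regulatory T cell in which no read of its defining gene was caught falls among the members, and how many did so was not tested. Mice gave 15 members (minP1_2) to 50 (minP1_1), with 445227 to 1033294 reads in all. In minP1_2 and PDL1_1 a single member held 40.5% and 38.5% of these reads. No barcode was shared between mice, and all mice came from 1 hashtagged cDNA library. Within a mouse, fewer cells that use a gene and less RNA per cell cannot be told apart in summed reads.

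To compare cells at like depth, each cell was thinned to 10000 reads, which left 366 members, 333 regulatory T cells, 469 CD8 T cells and 655 macrophages (cells with at least 5 CP10k of both C1qa and Lyz2, median 119622.5 reads before thinning). Macrophages should lack T cell genes, so their share reflects free RNA and mixed barcodes. Their gate set no limit on Trac, so this share need not be the background of T cells. The T cell receptor gene Trbc2 was read in 85.5% of members, 86.2% of regulatory T cells, 92.8% of CD8 T cells and 51.1% of macrophages. Cd3e, a chain of the receptor complex, was read in 51.1% of members, 62.8% of regulatory T cells, 69.9% of CD8 T cells and 21.4% of macrophages. Trbc2 and Cd3e were not used by the rule, but Trac was, and the T cell classes all had to reach its limit. Genes that go with Trac are not independent of the rule, so these shares are no separate test of the T cell label. Cd40lg, the gene of CD40 ligand, was read in 12.6% of members, 3.90% of regulatory T cells, 5.12% of CD8 T cells and 2.29% of macrophages. Without thinning these Cd40lg shares were 14.3%, 4.68%, 6.20% and 5.41%. Icos, a costimulatory receptor of helper cells, was read in 80.9% of members, 90.1% of regulatory T cells, 70.1% of CD8 T cells and 45.0% of macrophages.

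Cytokine genes that define helper programmes were rare. Il4 had reads in 11 members (2.76%) and Il13 in 14 (3.52%). Neither was found in 342 regulatory T cells, which allows a share of up to 0.877% of cells with a caught read and does not bound the share that express the gene. After thinning, Il13 was read in 3.55% of members, 0.640% of CD8 T cells and 0.153% of macrophages. Thinned Il4 was read in 3.01% of members, 1.07% of CD8 T cells and 1.07% of macrophages. Summed over 5 markers of group 2 innate lymphoid cells, Il13 among them, members had 45.2 to 586 CPM (median 237). Regulatory T cells had 346 to 1003 CPM (median 609) and CD8 T cells 13.5 to 318 CPM (median 86.8). Whether the Il4 and Il13 reads lay in helper T cells or in members with reads of innate lymphoid or basophil genes was not tested. Il17a reached 2.46% of members, 0.601% of regulatory T cells, 0.853% of CD8 T cells and 1.22% of macrophages. The follicular cytokine gene Il21 was read in 1.91% of thinned members. Ifng and its regulator Tbx21 lay in members at 10.7% and 5.74%, below the 16.6% and 10.5% of macrophages. Regulatory T cells (6.61% and 7.51%) lay below macrophages too, and CD8 T cells (36.5% and 19.0%) above them. These shares do not place Ifng or Tbx21 of members above background, and the background of T cells is not known from them.

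Members with a read of Cd4 differed in what else was read, at unequal depth. The 188 members with Cd4 had a median of 21254 reads and the 210 without it 15679. Ctla4 was read in 70.2% of members with Cd4 and 44.8% of those without. Cxcr6, a chemokine receptor of tissue-resident and Th1 cells, was read in 35.1% of members with Cd4 and 15.2% without. The costimulatory receptor gene Tnfrsf4 (OX40) was read in 40.4% with Cd4 and 20.5% without, Cd40lg in 19.1% and 10.0%, and Pdcd1 (PD-1) in 13.8% and 5.24%. Over all thinned members Pdcd1 was read in 9.02%, against 9.16% of macrophages. Klf2 went the other way, with reads in 61.2% of members with Cd4 and 69.5% of those without. Gzmb, a granzyme, was read in 30.9% with Cd4 and 30.5% without. These are shares over cells of all mice, with no test.

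The first comparison asks whether treatment changed how many conventional T cells the tumour held. Members made up 8.87%, 2.51%, 4.70% and 3.43% of kept CD45+ cells in minP1 mice and 3.52%, 4.72% and 8.53% in PDL1 mice. They made up 5.39%, 6.26%, 4.72% and 4.37% in minP1_PDL1 mice and 5.99%, 3.55% and 6.59% in Control mice. The 4 groups overlapped throughout, with the lowest and the highest mouse both in the minP1 group. Means were 4.88 ± 2.81% in minP1 mice, 5.59 ± 2.62% in PDL1 mice, 5.19 ± 0.832% in minP1_PDL1 mice and 5.38 ± 1.61% in Control mice (SD). An exact permutation test of F over the 4 groups gave p = 0.975.

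Among T cells the picture was the same. Members were 34.7%, 14.6%, 23.8% and 23.2% of T cells in minP1 mice, 19.8%, 25.6% and 36.1% in PDL1 mice, 25.2%, 25.4%, 25.3% and 26.7% in minP1_PDL1 mice and 24.8%, 18.5% and 30.0% in Control mice (exact permutation p = 0.925). The minP1_PDL1 mice lay close together, and the other groups spread around them. The log2 ratio of members to regulatory T cells averaged 0.03 ± 0.97 in minP1 mice, 0.43 ± 0.55 in PDL1 mice, 0.17 ± 0.34 in minP1_PDL1 mice and 0.16 ± 0.66 in Control mice (SD, exact permutation p = 0.901). The log2 ratio to CD8 T cells averaged -0.51 ± 0.57 in minP1 mice, -0.28 ± 0.91 in PDL1 mice, -0.14 ± 0.27 in minP1_PDL1 mice and -0.29 ± 0.35 in Control mice (SD, exact permutation p = 0.817). Of 20 two-sided exact permutation tests of pairs of groups 0 passed, and the smallest unadjusted p was 0.314. The smallest p such a test can give is 0.1 for 3 mice against 3 and 0.0286 with 4 mice in either group, so the design could show only large differences.

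**Figure D1:**
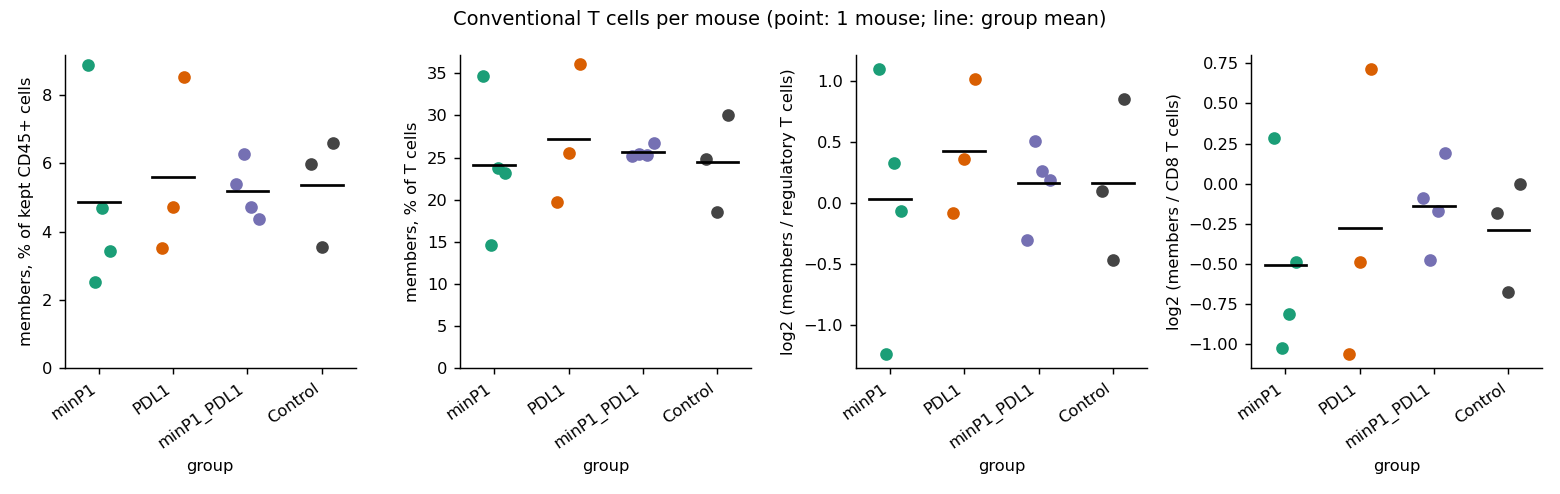
Each point is 1 mouse and each line a group mean, for the percentage of members among kept CD45+ cells and among T cells and for the log2 ratios to regulatory and CD8 T cells. The groups overlap in all 4 panels, and the percentage of T cells in minP1_PDL1 mice lies between 25.2% and 26.7%.

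Compared with regulatory T cells of the same mouse, conventional T cells had lower levels of the regulatory programme and of tumour necrosis factor receptors, and higher levels of genes that included Itgb1, Bcl2, Cxcr6 and Klrd1. Reads were summed per mouse and class and are given as CPM (the reads of a gene scaled to the same total for every sum), which compares classes and not genes with each other. Of 6306 genes tested with mouse as a block, 204 (3.24%) passed an adjusted p of 0.05 in edgeR's quasi-likelihood test, 144 higher (2.28%) and 60 lower (0.951%) in conventional T cells. The median log2 change of all genes tested was -0.09. Foxp3 split these classes, so genes known to go with Foxp3 are not independent of the rule. Members also needed a read of Cd4, Tcf7 or Il7r, which regulatory T cells did not. Genes that go with Cd4, Tcf7 or Il7r are therefore not independent of the rule either.

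Of 14 tested genes of the regulatory programme 6 fell and 0 rose, with a median log2 change of -1.28. Ikzf2, the Helios factor of regulatory T cells, had 105, 195 and 397 CPM in conventional T cells (lowest, median and highest of 14 mice), against 577, 728 and 1057 CPM in regulatory T cells. The classes did not overlap, and Ikzf2 was lower in 14 of 14 mice (log2 change -1.75, SE 0.17, edgeR adjusted p = 8.35e-07). Il2ra had 26.9, 239.9 and 730.0 CPM in conventional T cells, against 339.9, 927 and 1311 CPM in regulatory T cells (log2 change -1.94, SE 0.34, edgeR adjusted p = 0.0019). Il2ra overlapped between the classes but was lower in all 14 mice. Ctla4, the inhibitory receptor that competes for CD80 and CD86, had 501, 1074 and 3185 CPM in conventional T cells, against 1592, 2051 and 3019 CPM in regulatory T cells (log2 change -0.96, SE 0.15, edgeR adjusted p = 0.000245). In 1 of 14 mice Ctla4 was higher in conventional T cells, and the conventional T cells of that mouse, minP1_PDL1_3, had the highest value of either class. Klrg1, a receptor of differentiated effector and tissue regulatory T cells, had 9.45, 57.8 and 259.6 CPM in conventional T cells, against 80.2, 279.5 and 390.1 CPM in regulatory T cells (log2 change -1.87, SE 0.31, edgeR adjusted p = 0.00037).

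The list of helper activation and costimulation split. Of 11 tested genes 2 rose, the ligand genes Tnfsf8 and Tnfsf11, and 3 fell, the receptor genes Tnfrsf4, Tnfrsf9 and Tnfrsf18. Tnfsf8 (CD30 ligand) had 0, 89.1 and 162 CPM in conventional T cells, against 0, 0 and 38.7 CPM in regulatory T cells, and was higher in 13 of 14 mice (edgeR adjusted p = 0.000245). Tnfsf11 (RANKL, a ligand for dendritic cells and osteoclasts) had 59.5, 128 and 249 CPM in conventional T cells, against 0, 1.82 and 198 CPM in regulatory T cells (log2 change 4.41, SE 0.83, edgeR adjusted p = 0.0017). Most regulatory T cell pools had few or no reads of these ligands, so their fitted fold changes depend on the prior count. Tnfrsf4 had 104, 190.4 and 437 CPM in conventional T cells, against 386, 631 and 1067 CPM in regulatory T cells, and was lower in 14 of 14 mice (log2 change -1.54, SE 0.20, edgeR adjusted p = 3.45e-05). Tnfrsf9 (4-1BB) and Tnfrsf18 (GITR) were lower in 13 of 14 mice each, with log2 changes of -1.29 (SE 0.20) and -0.99 (SE 0.18). Izumo1r, the folate receptor 4 gene of anergic and regulatory T cells, stood on the follicular list and fell as well (log2 change -2.12, SE 0.30, edgeR adjusted p = 8.34e-05).

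**Figure D2:**
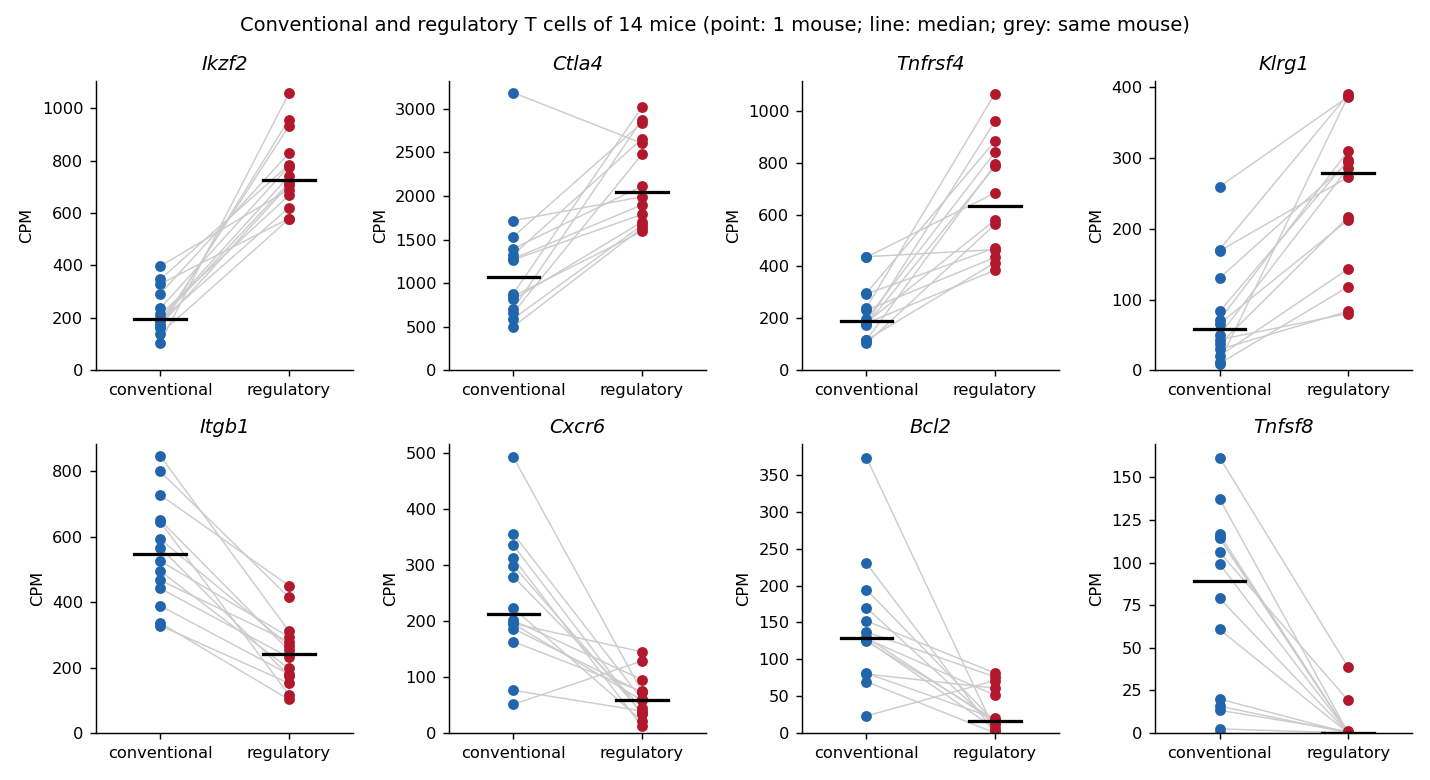
CPM of 8 genes in conventional and regulatory T cells, where each point is 1 of 14 mice, grey lines join the classes of a mouse and black lines are medians. Ikzf2 does not overlap between the classes, and Itgb1 is higher in the conventional T cells of every mouse.

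Genes higher in conventional T cells included Itgb1, the beta 1 integrin chain by which activated T cells hold to matrix. Itgb1 had 328, 546 and 847 CPM in conventional T cells, against 102, 242 and 451 CPM in regulatory T cells, and was higher in 14 of 14 mice (log2 change 1.31, SE 0.15, edgeR adjusted p = 7.91e-06). Of 10 tested Th1 genes 3 rose and 0 fell, with a median log2 change of 1.22. They were Cxcr6, the factor Bhlhe40 and the interleukin 18 receptor gene Il18r1. Cxcr6 had 51.1, 212 and 492 CPM in conventional T cells, against 11.9, 59.1 and 145 CPM in regulatory T cells (log2 change 2.06, SE 0.37, edgeR adjusted p = 0.00105). Bhlhe40, a factor of cytokine-producing helper cells, had 371, 1191 and 1539.8 CPM in conventional T cells, against 343, 559 and 887 CPM in regulatory T cells (log2 change 0.94, SE 0.18, edgeR adjusted p = 0.00251). Both were higher in 13 of 14 mice. Ifng, the cytokine of the programme, was not among the 3 genes that passed, and neither were Tbx21 and Cxcr3. After thinning, Cxcr3 was read in 17.2% of members and 27.3% of regulatory T cells, and Tbx21 in 5.74% and 7.51%. Ifng went the other way, at 10.7% and 6.61%.

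Of 13 tested cytotoxic genes 3 rose and 0 fell, Klrd1, Klrc1 and Ctsw. Klrd1 (CD94) pairs with the product of Klrc1 (NKG2A) as a receptor of NK cells and killer T cells, and Ctsw is a protease of the same cells. Klrd1 had 34.2, 149.9 and 306.2 CPM in conventional T cells, against 0, 15.0 and 60.8 CPM in regulatory T cells, and was higher in 14 of 14 mice (log2 change 3.57, SE 0.54, edgeR adjusted p = 0.000231). Ctsw had 24.1, 185 and 323 CPM in conventional T cells, against 1.78, 24.8 and 65.5 CPM in regulatory T cells (edgeR adjusted p = 0.00498). Summed levels of 6 NK cell markers ran from 28.2 to 589 CPM in conventional T cells (median 211), against 12.3 to 958 CPM in regulatory T cells (median 48.1). No marker of that list was at 0 in every mouse of the conventional class, and its part in the result was not tested.

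Of 8 tested genes of the naive and central memory list 3 rose and 0 fell, with a median log2 change of 0.81. Reads of Tcf7 or Il7r could admit members and were not asked of regulatory T cells, so this list is not independent of the rule. Bcl2, which keeps resting T cells alive, had 23.0, 129 and 374 CPM in conventional T cells, against 0, 16.5 and 81.2 CPM in regulatory T cells (log2 change 2.88, SE 0.66, edgeR adjusted p = 0.0103). Klf2, the factor that drives S1pr1, had 629, 1061 and 1895 CPM in conventional T cells, against 281, 552 and 1366 CPM in regulatory T cells (log2 change 1.03, SE 0.17, edgeR adjusted p = 0.000456). Satb1, a chromatin organiser of thymocytes, had a log2 change of 0.87 (SE 0.20). Zfp36l2, an RNA-binding protein that holds cytokine messages silent, was higher in 14 of 14 mice (725, 1056 and 1653 CPM in conventional T cells, against 327, 558 and 1018 CPM in regulatory T cells, edgeR adjusted p = 1.17e-05). Of 14 immediate early genes 3 rose, among them Fosb (log2 change 1.16, SE 0.18) and Btg2, which slows division (1.00, SE 0.26, edgeR adjusted p = 0.0225). The Btg2 call was lost without Control_1 (0.0626), minP1_3 (0.0595) or minP1_4 (0.0519).

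Of 13 tested type I interferon genes 2 fell and 0 rose, among them Ifi27l2a. Ifi27l2a had 590.1, 875 and 1245 CPM in conventional T cells, against 911, 1611 and 2327 CPM in regulatory T cells, and was lower in 14 of 14 mice (log2 change -0.85, SE 0.11, edgeR adjusted p = 3.45e-05). Of 12 interferon gamma genes 2 fell and 0 rose, the guanylate-binding protein genes Gbp3 (log2 change -2.02, SE 0.43) and Gbp7 (-0.80, SE 0.19). Ly6a, the Sca-1 surface protein that interferon raises in T cells, had 211, 342 and 916 CPM in conventional T cells, against 346, 1395 and 2435 CPM in regulatory T cells (log2 change -1.57, SE 0.24, edgeR adjusted p = 0.000317). The chemokine receptor gene Ccr2 had 220.4, 441 and 856 CPM in conventional T cells, against 412, 789 and 1016 CPM in regulatory T cells (log2 change -0.76, SE 0.16, edgeR adjusted p = 0.00588). Of 17 cell cycle genes 0 passed, although all 17 had lower fitted values and 10 had an unadjusted p under 0.05. Ribosomal protein genes, a list chosen after values had been seen, rose in 63 of 96 tested and fell in 0, with a median log2 change of 0.47.

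Other genes of smallest adjusted p belonged to no single list. Stk17b, a kinase that dampens T cell receptor signals, had 972, 1599 and 2191 CPM in conventional T cells, against 632, 949.8 and 1324 CPM in regulatory T cells, and was higher in 14 of 14 mice (log2 change 0.80, SE 0.11, edgeR adjusted p = 8.13e-05). Pde3b, a phosphodiesterase that breaks down cyclic AMP, had 8.98, 93.7 and 197 CPM in conventional T cells, against 0, 0 and 61.7 CPM in regulatory T cells, and was higher in 14 of 14 mice as well (edgeR adjusted p = 0.000158). Arl5a, a small GTPase of the Golgi, was lower in 14 of 14 mice, with 40.7, 186 and 363 CPM in conventional T cells, against 282, 624 and 838 CPM in regulatory T cells (log2 change -1.67, SE 0.23). Wls, which carries Wnt proteins to the cell surface, had a log2 change of -2.18 (SE 0.33), the glycolytic enzyme gene Pkm -0.77 (SE 0.13) and the interferon-induced Ly6e -1.21 (SE 0.17). The ribosomal protein genes Rps27 and Rps16 had log2 changes of 0.74 (SE 0.10) and 0.71 (SE 0.10).

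In cells of 10000 to 30000 reads of both classes, 176 of 3825 genes passed (4.60%), of which 129 were among the 204. The regulatory programme then had 8 of 13 genes lower, while Il18r1, Ly6e, Satb1, Gbp3 and Ctsw no longer passed and Tnfsf8, Tnfsf11 and Klrc1 were too low to be tested. The median of the cytotoxic list was then 0.17 over 6 genes, that of helper activation -0.16 over 7 genes and that of the cell cycle 0.50 over 5 genes. With members held to at least 1 read of Cd4, 77 genes passed, 24 higher and 53 lower, and the median of all genes moved to -0.47. Klf2 (log2 change 0.41, edgeR adjusted p = 0.272), Bcl2 (2.63, 0.0986), Il2ra (-1.86, 0.0617) and Fosb (0.81, 0.0654) then missed it, and 2 of 95 ribosomal protein genes passed. limma on the mean CP10k of cells gave 180 higher and 180 lower.

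Against CD8 T cells, conventional T cells had lower levels of killer, inhibitory receptor and division genes and higher levels of costimulation, trafficking and early response genes over all cells, and few of these calls were made among cells of like depth. Of 7405 genes tested with mouse as a block, 767 (10.4%) passed, 225 higher (3.04%) and 542 lower (7.32%) in conventional T cells, with a median log2 change of -0.34 over all genes. Reads of Cd8a and Cd8b1 split these classes, and only members needed a read of Cd4, Tcf7 or Il7r. Genes that go with any of these are therefore not independent of the rule. In cells of 10000 to 30000 reads of both classes, 7 of 3616 genes passed (0.194%), 5 higher and 2 lower, and 194 had an unadjusted p under 0.05. The median of all genes was then 0.14. The window holds 7 to 23 CD8 T cells a mouse, and the change in the window is given beside a fold change where it could be tested. The 5 higher genes were Rgs1, Rgs2, Tmem64, Tnfrsf18 and H2-D1 and the 2 lower were Plac8 and Ly6c2, named after their values had been seen. With cells over 100000 reads left out, 245 genes passed, 98 higher and 147 lower.

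Of 15 tested cytotoxic genes 9 were lower and 0 higher, with a median log2 change of -2.03 over all cells and -1.66 over 11 genes in the read window, where 0 passed. Prf1, the gene of perforin, had 0, 18.8 and 86.1 CPM in conventional T cells, against 91.6, 258 and 450.3 CPM in CD8 T cells, with no overlap (log2 change -3.87, SE 0.54, edgeR adjusted p = 6.54e-05). Prf1 was too low to be tested in the window. Nkg7, a granule protein, had 30.6, 302.5 and 820.5 CPM in conventional T cells, against 862, 1319 and 1720.2 CPM in CD8 T cells (log2 change -2.20, SE 0.37, edgeR adjusted p = 0.00185). In the window its log2 change was -1.67 (edgeR adjusted p = 0.71). Klrd1, higher than in regulatory T cells, was lower than in CD8 T cells in 14 of 14 mice (log2 change -1.33, SE 0.24, and -1.52 in the window). Klrk1, the activating receptor NKG2D, was lower in 13 of 14 mice (log2 change -2.03, SE 0.38, and -1.85 in the window). Ifng had 0, 119.8 and 272 CPM in conventional T cells, against 169.8, 509 and 1138 CPM in CD8 T cells (log2 change -2.35, SE 0.50, edgeR adjusted p = 0.00741, and -1.73 in the window).

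Of 10 tested checkpoint and exhaustion genes 6 were lower (Pdcd1, Lag3, Havcr2, Entpd1, Cd160 and Nr4a2) and 1 higher (Ctla4). Havcr2 (TIM-3) had 0, 2.53 and 33.0 CPM in conventional T cells, against 57.0, 159 and 366 CPM in CD8 T cells, with no overlap (log2 change -4.89, SE 0.64, edgeR adjusted p = 1.13e-05), and was too low to be tested in the window. Pdcd1, the receptor whose ligand the antibody binds, had 0, 47.0 and 191 CPM in conventional T cells, against 135, 233 and 359.9 CPM in CD8 T cells (log2 change -2.48, SE 0.52, edgeR adjusted p = 0.00413, and -0.93 in the window). Ctla4 had 501, 1074 and 3185 CPM in conventional T cells, against 429, 621 and 795 CPM in CD8 T cells (log2 change 0.74, SE 0.16, edgeR adjusted p = 0.00266, and 0.51 in the window). The median CPM of Ctla4 in conventional T cells lay below that of regulatory and above that of CD8 T cells. The share of cells went the other way against CD8 T cells. After thinning, Ctla4 was read in 54.6% of members, 92.2% of regulatory T cells, 67.2% of CD8 T cells and 44.6% of macrophages.

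Of 18 tested cell cycle genes 16 fell and 0 rose, with a median log2 change of -2.44. Rrm2, a subunit of ribonucleotide reductase, had 0, 20.9 and 123 CPM in conventional T cells, against 59.3, 171 and 346 CPM in CD8 T cells (log2 change -2.89, SE 0.46, edgeR adjusted p = 0.000157), and missed the threshold with cells over 100000 reads left out (-1.97, adjusted p = 0.0712). In the window 3 of these genes could be tested, 0 passed and the median was 0.08. Tubb5, a tubulin, had a log2 change of -1.17 over all cells and 0.04 in the window, and Pcna, the clamp of DNA replication, -0.88 and 0.20.

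**Figure D3:**
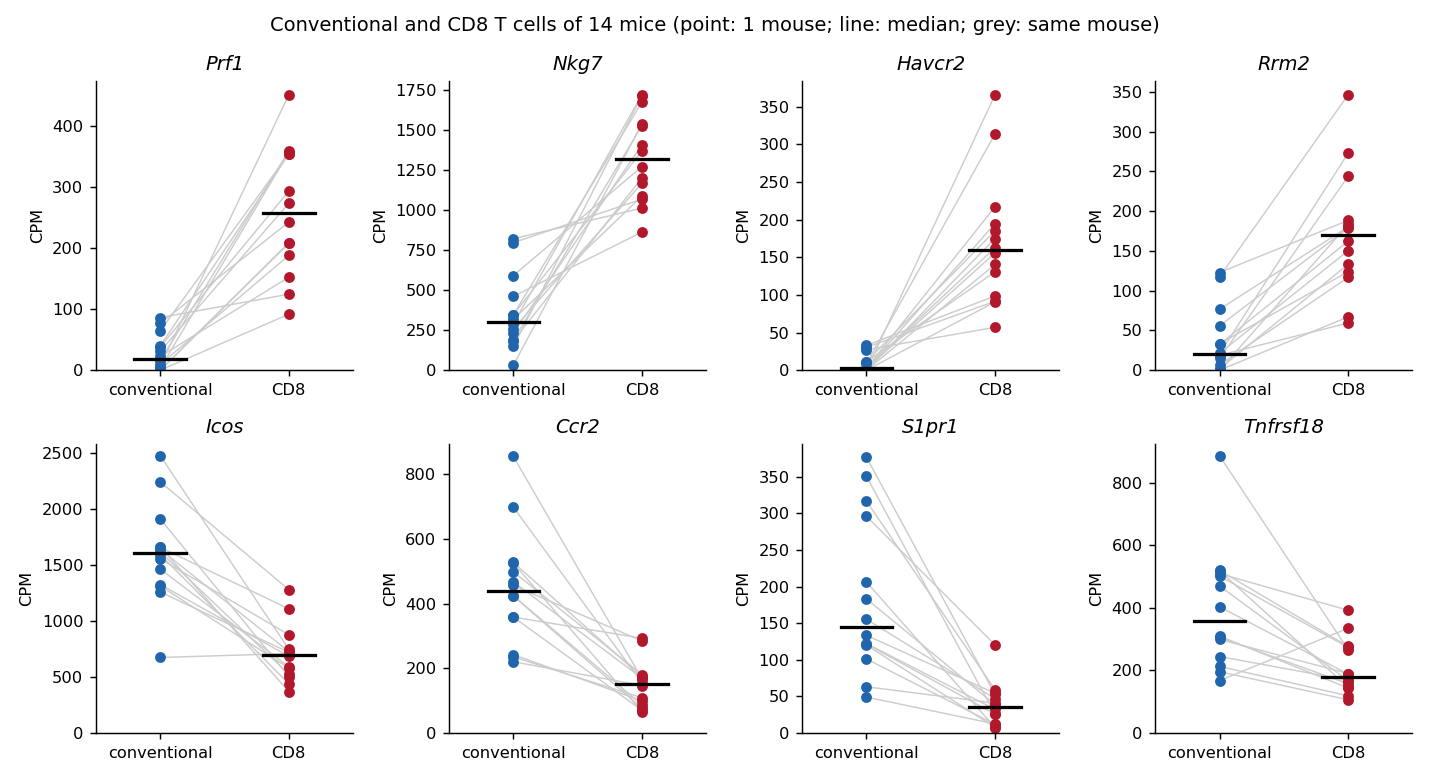
CPM of 8 genes in conventional and CD8 T cells, where each point is 1 of 14 mice, grey lines join the classes of a mouse and black lines are medians. Prf1 and Havcr2 do not overlap, and Ccr2 and S1pr1 are higher in the conventional T cells of every mouse.

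Of 11 tested genes of helper activation 8 rose and 0 fell, with a median log2 change of 0.85 over all cells and 0.90 over 9 genes in the window, where 1 passed. Icos had 675, 1607 and 2481 CPM in conventional T cells, against 370.0, 697 and 1281 CPM in CD8 T cells (log2 change 1.17, SE 0.14, edgeR adjusted p = 4.47e-06, and 0.90 in the window). Cd40lg had 8.43, 48.1 and 220.2 CPM in conventional T cells, against 0.531, 11.2 and 27.9 CPM in CD8 T cells, and was higher in 14 of 14 mice (log2 change 2.41, SE 0.60, edgeR adjusted p = 0.0103). In the window the Cd40lg change was 2.74 (edgeR adjusted p = 0.542). Tnfrsf18 had 168, 356 and 886 CPM in conventional T cells, against 106, 178 and 392 CPM in CD8 T cells, and passed over all cells (log2 change 0.85, SE 0.18, edgeR adjusted p = 0.00267) and in the window (1.96, 0.0186).

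Of 13 chemokine receptor and homing genes 6 rose and 1 fell. Ccr2 had 220.4, 441 and 856 CPM in conventional T cells, against 66.2, 151 and 293 CPM in CD8 T cells (log2 change 1.61, SE 0.20, edgeR adjusted p = 7.07e-06, and 0.74 in the window). S1pr1, the receptor that leads T cells out of tissue, had 48.9, 144 and 377 CPM in conventional T cells, against 7.35, 35.4 and 120.3 CPM in CD8 T cells (log2 change 2.36, SE 0.31, edgeR adjusted p = 1.23e-05, and 1.38 in the window). Both were higher in 14 of 14 mice. Cxcr4 (log2 change 1.63, and 0.53 in the window) and the gut-homing integrin gene Itgb7 (1.52 and 0.78) were each higher in 13 of 14 mice. The gene that fell was Ccr7, the lymph node homing receptor, with 42.7, 299 and 604 CPM in conventional T cells, against 188, 594 and 1051 CPM in CD8 T cells (log2 change -1.02, SE 0.26, edgeR adjusted p = 0.0134, and -0.51 in the window). Klf2 had a log2 change of 1.20 (SE 0.14) over all cells and 0.11 in the window, and Lef1 1.23 (SE 0.31) and 0.19.

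Among factors of helper programmes, Rora, used by Th17 and type 2 cells, had 164, 476 and 779 CPM in conventional T cells, against 52.3, 179.7 and 365 CPM in CD8 T cells (log2 change 1.33, SE 0.19, edgeR adjusted p = 2.49e-05, and 0.40 in the window). Of 3 tested Th2 genes 2 rose, Gata3 (log2 change 1.00, SE 0.32, edgeR adjusted p = 0.0449, and 0.69 in the window) and Il10 (4.64, SE 1.27, 0.0243, too low to be tested in the window). The Gata3 call was lost when any 1 mouse other than Control_1, minP1_2 or PDL1_1 was left out, with adjusted p of 0.0544 to 0.1. The Il10 call was lost without Control_2 (0.0513), minP1_2 (0.0503) or PDL1_3 (0.0505). Th1 genes went down in 2 of 10, Ifng and Tbx21. Of 14 regulatory programme genes 6 rose and 0 fell against CD8 T cells, with a median of 1.16. Ikzf2 had 105, 195 and 397 CPM in conventional T cells, against 0.963, 79.2 and 142 CPM in CD8 T cells (log2 change 1.44, SE 0.32, edgeR adjusted p = 0.00473, and 1.85 in the window). Members held to a read of Cd4 had a change of 0.70 for Ikzf2 (edgeR adjusted p = 0.361). The shares of cells lay closer together. After thinning, Ikzf2 was read in 22.7% of members, 19.8% of CD8 T cells and 17.3% of macrophages. Of 15 immediate early genes 8 rose and 0 fell, led by Nfkbia, the inhibitor of NF-kappa B, at 0.91 (SE 0.09, higher in 14 of 14 mice) over all cells and 0.33 in the window. The surface molecules Cd5 (log2 change 1.32) and Cd2 (0.88) and the interferon gamma receptor chain Ifngr1 (1.00) were higher too, at 1.16, 0.50 and 0.34 in the window.

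The genes of smallest adjusted p that were lower in conventional T cells were Rgs16, which shortens signals of chemokine receptors, and Serpinb6b, a protease inhibitor. Rgs16 had 16.9, 47.6 and 153 CPM in conventional T cells, against 189.9, 397 and 634 CPM in CD8 T cells, with no overlap (log2 change -2.92, SE 0.27, edgeR adjusted p = 7.26e-08, and -1.99 in the window). Serpinb6b had 20.2, 93.0 and 270.4 CPM in conventional T cells, against 365, 546 and 858 CPM in CD8 T cells, with no overlap either (log2 change -2.69, SE 0.25, edgeR adjusted p = 7.26e-08, and -1.48 in the window). Among genes that were higher, Emb, the adhesion protein embigin, had 219, 620.2 and 1318 CPM in conventional T cells, against 64.9, 175 and 394 CPM in CD8 T cells (log2 change 1.63, SE 0.19, edgeR adjusted p = 3.23e-06, and 0.80 in the window). Nrp1, a semaphorin receptor that marks regulatory T cells of thymic origin, had a log2 change of 2.05 (SE 0.34) over all cells and 1.21 in the window. The early response gene Fos had 0.98 (SE 0.14) and 0.48, and Cd69, which holds T cells in tissue, 0.76 (SE 0.17) and 0.15.

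**Figure D4:**
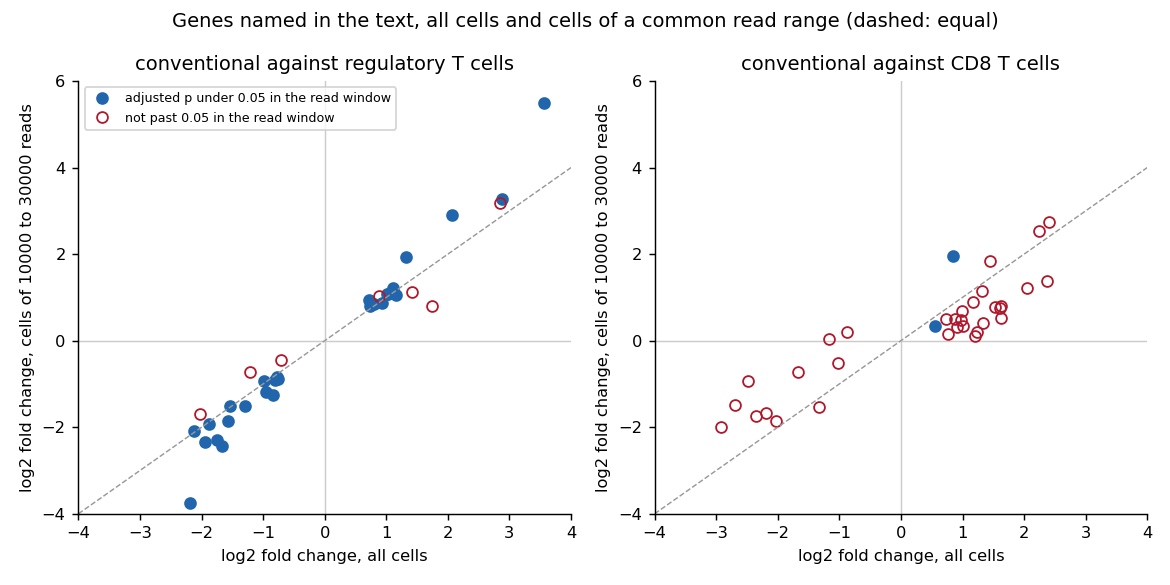
For genes of the text that could be tested in both, the log2 change over all cells (horizontal axis) against that in cells of 10000 to 30000 reads (vertical axis), with conventional over regulatory T cells on the left and over CD8 T cells on the right. Filled points passed an adjusted p of 0.05 in the window, and most points of the right panel are open.

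The next comparison asks which genes of conventional T cells treatment changed. Over the 4 groups 1 of 8512 genes passed (0.0117%), Cst3 (edgeR adjusted p = 0.031), and 273 had an unadjusted p under 0.05. Cst3 encodes cystatin C, a secreted inhibitor of cathepsins made in abundance by dendritic cells and macrophages. Cst3 had 468, 350.5, 539.6 and 303.03 CPM in minP1 mice, 983, 1229 and 743 CPM in PDL1 mice, 459, 412, 307.7 and 289 CPM in minP1_PDL1 mice and 202, 189 and 239 CPM in Control mice. The PDL1 mice were the 3 highest and the Control mice the 3 lowest. Between PDL1 and Control mice Cst3 was the 1 gene past the threshold (0.0117%), with a log2 change of 2.22 (SE 0.35, edgeR adjusted p = 0.00779, higher in 3 of 3 mice).

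Single cells held much of the Cst3 level. In PDL1_1, PDL1_2 and PDL1_3 a single member held 386 of 692, 517 of 653 and 519 of 768 Cst3 reads (55.8%, 79.2% and 67.6%). Without the member of most Cst3 reads in each mouse, levels were 328, 262, 396 and 214 CPM in minP1 mice, 707, 313.05 and 271 CPM in PDL1 mice, 346, 312.03, 246 and 212 CPM in minP1_PDL1 mice and 138, 143 and 162 CPM in Control mice. The member left out was picked by its Cst3 reads, so every level is lower by construction. All 3 PDL1 mice still lay above all 3 Control mice, while PDL1_2 and PDL1_3 lay among the minP1 and minP1_PDL1 mice. Those 3 members of PDL1 mice held 271353, 96777 and 113330 reads and 65, 1022 and 1427 reads of Cd74, the invariant chain of MHC class II. Summed over 8 markers of dendritic cells and MHC class II, members had 169 to 881 CPM in minP1 mice, 216 to 5053 CPM in PDL1 mice, 133 to 594 CPM in minP1_PDL1 mice and 154 to 2262 CPM in Control mice, and 0 of the 8 markers were at 0 in every mouse. Summed macrophage markers, Lyz2 and C1qa of the rule among them, ran from 89.2 to 269 CPM in minP1 mice and 103 to 622 CPM in PDL1 mice. They ran from 33.7 to 224 CPM in minP1_PDL1 mice and 51.0 to 123 CPM in Control mice. The highest was PDL1_1, at 622 CPM, and 85.5 CPM without the member with the most of these reads. The part of these markers in the Cst3 result was not tested. The fold change for PDL1 against Control stayed above 0 in each alternative run, from 1.36 to 2.45 on the log2 scale. It missed the threshold with cells over 100000 reads left out (log2 change 1.98, edgeR adjusted p = 0.776), with Trac at 5 CP10k or more (1.36, 1), with a read of Cd4 required (1.73, 0.945) and in limma (1.68, 0.408). Leaving out Control_1 (2.21, 0.126), Control_2 (2.14, 0.147) or PDL1_2 (2.02, 0.153) also lost the call. The test over the 4 groups lost its Cst3 call in 15 alternative runs.

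**Figure D5:**
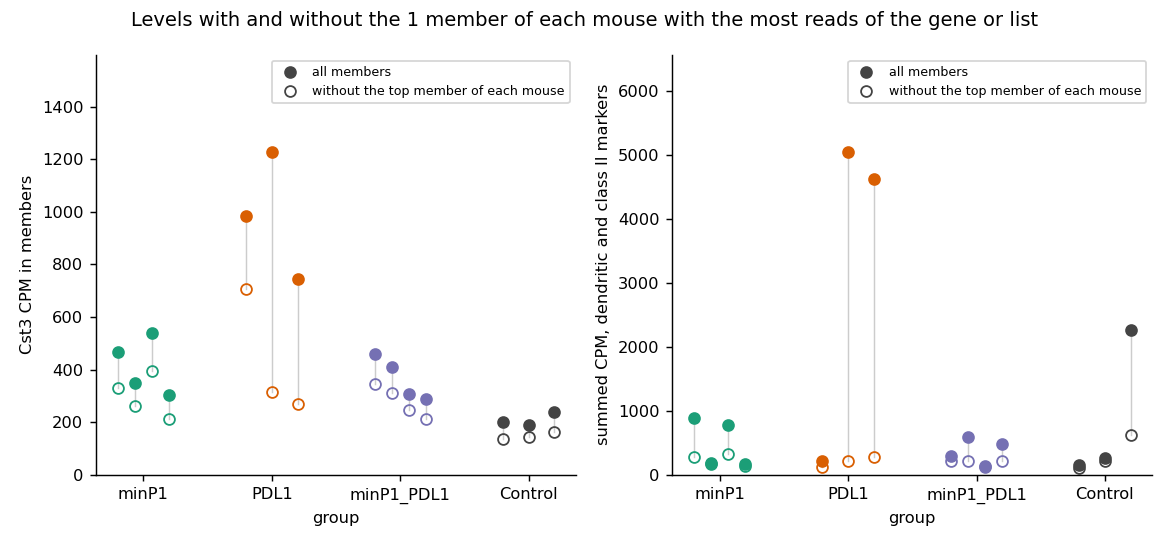
Cst3 CPM of members (left) and the summed CPM of 8 dendritic cell and MHC class II markers (right) in each mouse by group. Filled points hold all members and open points leave out the 1 member of each mouse with the most reads of the gene or list. The 3 PDL1 mice lie at 743 to 1229 CPM for Cst3 with all members.

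No gene passed in the other 4 pairs, each at 0.00% of 8512 genes in edgeR. Genes with an unadjusted p under 0.05 numbered 357 for minP1 against Control, 404 for minP1_PDL1 against Control, 397 for minP1_PDL1 against PDL1 and 346 for minP1_PDL1 against minP1. DESeq2 called 5, 1, 4 and 4 genes in these pairs and limma 0, 0, 1 and 0. The genes of smallest p are given as values. Tgfbi, a matrix protein gene of monocytes, had 3.15, 26.3, 11.3 and 5.75 CPM in minP1 mice, 234, 207 and 237 CPM in PDL1 mice, 27.0, 8.33, 4.49 and 42.6 CPM in minP1_PDL1 mice and 3.46, 42.2 and 28.3 CPM in Control mice (unadjusted p = 0.000267 over the 4 groups). A single member held 99.4%, 81.8% and 66.1% of Tgfbi reads in the 3 PDL1 mice, and without it they had 2.31, 46.0 and 90.2 CPM. These were the members with the most Cst3 reads too, at 271353, 96777 and 113330 reads in all. The Cst3 and Tgfbi levels of PDL1 mice therefore rest in part on the same cells.

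Erdr1, a gene of the pseudoautosomal region, had 759, 632, 534 and 328 CPM in minP1 mice, 829, 839.6 and 977 CPM in PDL1 mice, 679.8, 510.3, 804 and 653 CPM in minP1_PDL1 mice and 1159.5, 1766 and 1050.3 CPM in Control mice. The 3 Control mice were the highest of 14. Its log2 change was -1.22 (SE 0.27, unadjusted p = 0.000107, edgeR adjusted p = 0.91) for minP1 and -0.997 (SE 0.27, unadjusted p = 0.000934) for minP1_PDL1, both against the same Control mice. H3f3b, a histone H3.3 gene, had 2165.7, 1902, 2235 and 2211 CPM in minP1 mice, against 3646, 3442 and 2890.4 CPM in Control mice (log2 change -0.64, SE 0.17, unadjusted p = 0.000781). Tusc3, a subunit of the oligosaccharyltransferase complex, had 5.25, 154, 147 and 293 CPM in minP1 mice, against 0, 0 and 9.43 CPM in Control mice (unadjusted p = 0.000383). Ifngr1 had 548, 597 and 677 CPM in PDL1 mice, against 1349.9, 1496 and 1094 CPM in Control mice, with no overlap (log2 change -1.10, SE 0.28, unadjusted p = 0.000592, edgeR adjusted p = 1). Klf4, a factor of quiescent cells, had 43.9, 126, 47.2 and 137 CPM in minP1_PDL1 mice, against 113, 535, 552 and 196 CPM in minP1 mice (log2 change -1.97, SE 0.50, unadjusted p = 0.000539). Cdk4, the kinase of entry into the cell cycle, had 20.2, 21.4, 22.5 and 11.1 CPM in minP1_PDL1 mice, against 156, 144 and 105 CPM in Control mice (log2 change -2.82, SE 0.83, unadjusted p = 0.00224). None of these passed adjustment.

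No gene of the lists passed between groups in edgeR with the count filter. Pdcd1 had 1.05, 50.6, 19.8 and 105 CPM in minP1 mice, 34.1, 43.3 and 0 CPM in PDL1 mice, 38.8, 117, 191 and 85.1 CPM in minP1_PDL1 mice and 86.5, 51.0 and 42.4 CPM in Control mice. Ctla4 had 879.7, 1280.3, 1395 and 1717 CPM in minP1 mice, 812, 591 and 706 CPM in PDL1 mice, 1268, 1328, 3185 and 848 CPM in minP1_PDL1 mice and 659, 1533 and 501 CPM in Control mice. Cd40lg had 42.0, 85.1, 34.0 and 15.3 CPM in minP1 mice, 21.3, 73.4 and 54.2 CPM in PDL1 mice, 8.43, 129.7, 58.4 and 220.2 CPM in minP1_PDL1 mice and 34.6, 59.9 and 14.1 CPM in Control mice. The groups overlapped for Pdcd1 and Cd40lg. For Ctla4 the PDL1 mice lay below all minP1 and all minP1_PDL1 mice and overlapped the Control mice. The log2 change of Ctla4 for minP1_PDL1 against PDL1 was 1.22 (SE 0.38, unadjusted p = 0.00385, edgeR adjusted p = 1), and with no count filter its adjusted p was 0.00788 in that pair and 0.00491 over the 4 groups. With no count filter edgeR also called the list genes Ccl3, Ccl4, Il4, Il13 and Hspa1a in at least 1 comparison, DESeq2 called Il17a and limma called Ccl5. These genes were named after their values had been seen.

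Ccl3, a chemokine gene of activated T cells and myeloid cells, had 64.0, 32.4, 173 and 146 CPM in minP1 mice, 0, 120.5 and 108 CPM in PDL1 mice, 2719, 115, 27.0 and 1081 CPM in minP1_PDL1 mice and 588, 0 and 7.07 CPM in Control mice. The 2 highest mice were minP1_PDL1_1 and minP1_PDL1_4, and the groups overlapped. Ccl5, a chemokine gene of memory and effector T cells, had 454, 93.2, 361 and 324 CPM in minP1 mice, 72.4, 252 and 408 CPM in PDL1 mice, 339, 716, 719 and 866 CPM in minP1_PDL1 mice and 808, 342 and 311.2 CPM in Control mice. In limma Ccl5 had a log2 change of 2.18 for minP1_PDL1 against PDL1 (adjusted p = 0.00576), and in edgeR one of 1.41 (SE 0.52, adjusted p = 1).

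The last question is whether the difference between classes varied with treatment. The test of class by group called 0 of 6306 genes (0.00%) against regulatory T cells and 0 of 7405 (0.00%) against CD8 T cells in edgeR, with 129 and 172 genes at an unadjusted p under 0.05. DESeq2 called 0 and 3 genes in these tests.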

How the data were processed

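Tumour CD45+ cells of 14 mice were profiled in 1 hashtagged BD Rhapsody whole-transcriptome library. The authors deposited a table of read counts per gene (22836) and cell (8262 columns), in which reads had not been collapsed by molecular identifier. The submitters' processing notes name cutadapt 2.10, Bowtie2 2.3.4.1, Seurat 2.3.4 and the mm10 genome. Columns marked as doublets (141) or without a hashtag (6) were not used, and no doublet caller was run. Of 8115 columns of the mice, 383 with over 25% mitochondrial reads were removed, which left 7732 cells, while the study's design text states 7613. The labels speak of separate runs, and every column carries 1 run tag. Each replicate is a separate mouse.

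Members and gene lists were chosen with earlier results of these data known. Reads were summed per mouse and class and tested with edgeR 4.0.16 (TMM, filterByExpr, robust quasi-likelihood F test, Benjamini-Hochberg adjustment at 0.05 over all genes), with mouse as a block between classes. The 23 genes used by the rule were left out of the counts. Standard errors were taken from the fold change and F. Shares were tested with exact permutation tests of mice, and Wilson intervals were made with scipy 1.17.1. Named genes were, for a class comparison, up to 12 called genes per direction by adjusted p plus up to 4 per list and direction, and for treatments up to 8 per direction or, with fewer than 3 called, the 3 of smallest p. Genes of T cell function given between treatments were named as members of the lists. Alternatives were limma 3.58.1 on log2 mean CP10k, DESeq2 1.42.0, other size factors, no count filter, other cell limits, a replicate block and leaving out each mouse. The scripts were tested on simulated counts. False calls were held to a limit there for edgeR and not for DESeq2, which called more unchanged genes. Replicate numbers did not pair mice of different groups. Results of some genes are not reported here.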

Additional observations from a re-analysis of the deposited data

Results flagged for a closer look

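In groups of 4 mice, 6 of 44 values tested had a mouse apart from the other 3, and chance alone flags about 5% of groups. The share of members among T cells in minP1_PDL1 mice was highest at 26.7%, with the other 3 mice at 25.2% to 25.4%. Cdk4 in minP1 mice was highest at 286 CPM.

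Summed markers of neutrophils were highest in minP1_3 of the minP1 mice at 1480 CPM (41.0 CPM without the member with the most of these reads) and in minP1_PDL1_4 of the minP1_PDL1 mice at 3694 CPM (2374 CPM without it). Summed markers of mast cells and basophils were highest at 22.7 CPM in minP1 mice. In minP1_PDL1 mice they were highest in minP1_PDL1_1 at 2426 CPM, and 1.88 CPM without 1 member that held 1311 reads of the basophil protease gene Mcpt8. The part of these cells in other values was not tested.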

How the results depend on the processing

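Among named genes, 2 reversed, both against CD8 T cells in cells of 10000 to 30000 reads, Tubb5 (0.0443) and Pcna (0.195). Calls against CD8 T cells numbered 767, and 1193 with no count filter, 1784 in DESeq2, 245 with cells over 100000 reads left out and 7 in cells of 10000 to 30000 reads. Calls against regulatory T cells numbered 204, and 592 in DESeq2, 360 in limma and 77 with a read of Cd4 required. The test of class by group gave 22 calls against CD8 T cells and 6 against regulatory T cells with no filter and 3 against CD8 T cells in DESeq2. Leaving out 1 mouse gave 162 to 208 calls against regulatory T cells, 566 to 761 against CD8 T cells and 0 to 1 for class by group against CD8 T cells. Over the 4 groups there were 56 calls with no filter, 2 in DESeq2 and 0 with at least 20 members a mouse, Trac at 5 CP10k or more, a read of Cd4, a mitochondrial limit of 10% or cells over 100000 reads left out. For PDL1 against Control there were 12 with no filter, 6 in DESeq2, 0 in limma, with Trac at 5 CP10k, with a read of Cd4 or with deep cells left out. Leaving out 1 mouse gave 0 to 1 calls over the 4 groups and 0 to 2 for PDL1 against Control. With no filter and in DESeq2, calls numbered 6 and 5 for minP1 against Control, 8 and 1 for minP1_PDL1 against Control, 13 and 4 for minP1_PDL1 against PDL1 (1 in limma) and 18 and 4 for minP1_PDL1 against minP1. The cause was not tested. Thinned to 10000 reads, shares of members with Il7r and Cd3e moved to 60.4% and 51.1%. Correlations of same-numbered mice lay between -0.045 and 0.023, and 1 of 14 mice matched its own number best. With the replicate block 0 genes passed over the 4 groups and 1 for PDL1 against Control (Cst3, edgeR adjusted p = 0.0294). Leaving out 1 mouse gave exact permutation p of 0.433 to 0.996 for the share among CD45+ cells. The few members per mouse and reads not collapsed into molecules limit what these comparisons can show.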
